A study of Gallus gallus with 24 samples.

Results

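The genes described here are the muscle contractile genes measured in chicken abdominal fat: 49 genes whose symbols mark myosins, actins, troponins, tropomyosins and their partners, out of 6428 named genes and 15027 fitted features. They were taken by a rule on symbols, set and split into classes with earlier results of these data known, and lay on 80 of 19200 spots. By known tissue of expression, 24 are forms of skeletal muscle, 7 of heart or slow fibres and 6 of smooth muscle, while 10 are shared by muscle types or made in many cells. Of the last 2, MYLIP is a ubiquitin ligase that matches by its letters only, and MYLKSML was left unclassified.

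The birds were cockerels of a fat line (FL) and a lean line (LL), broiler-type chickens selected in opposite directions on abdominal fat weight and reared in the same standard way. Abdominal fat came from 4 birds per line at each of 6 ages, every second week from 1 wk to 11 wk. Each of 24 spotted cDNA arrays set 1 FL bird against 1 LL bird of the same age. FL carried the Alexa dye read at 647 nm on replicates 2 and 4, and the dye read at 555 nm on replicates 1 and 3.

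Muscle contracts when myosin heads of the thick filament pull on actin of the thin filament. In striated fibres, which form skeletal and heart muscle, troponin and tropomyosin switch the thin filament on with calcium, and titin, nebulin and the Z-disc proteins hold the filaments in register as sarcomeres. Smooth muscle of vessel walls has no troponin: a light chain kinase switches its myosin on, and calponin and transgelin bind its actin. Adipocytes are not a known source of sarcomere proteins, while vessel walls within a fat depot make smooth muscle forms.

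The values are the authors' deposited log2 ratios, which carry no level for either bird. The labelled tissue was therefore not checked against marker levels, and fewer muscle cells cannot be told apart from less RNA per cell. Nor can a ratio below 0 show which bird of the pair was unusual. FL likely stands on top of the ratio, being named first in the titles, and a positive value below means higher in FL on that reading. All signs would reverse with LL on top. A second reading is that the ratios are of the 647 dye over the 555 dye and should be turned on replicates 1 and 3. Between arrays that carried FL in the same dye, deposited ratios had a mean correlation over features of 0.208 (132 pairs of arrays). Between arrays that carried it in different dyes the mean was -0.163 (144 pairs, 119 of them below 0). The first reading with a dye term was used as the main one. Turned values are given for the genes called in the mean over ages and for some, not all, of the results that the turning moves. Spot names were matched with row and column exchanged. Pairs of spots of the same gene from different clones then had a mean rank correlation of 0.0615, above 0 on 24 of 24 arrays, against 0.0106 with the names as given. For the 27 such pairs among the contractile genes these values were 0.126 and 0.0259.

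Over the 6 ages together, most skeletal muscle genes had ratios slightly below 0 and smooth muscle genes lay on both sides of it, but none of the 49 genes passed the adjusted test. The fitted difference between the lines was below 0 for 17 of 24 skeletal genes, with a class median of -0.056 on the log2 scale. For smooth muscle genes it was below 0 for 2 of 6, with a median of 0.0075. Over all features the median was 0.0029, with 47.5% below 0. In limma, 0 of the 49 genes passed an adjusted p of 0.05 in this comparison, where 0.0133% of all features did. At an unadjusted p under 0.05, 5 skeletal genes lay below 0 and 0 above it, and 1 smooth gene lay below and 1 above. Over all 49 genes these counts were 7 below, against 4.75% of all features, and 3 above, against 5.5%. The medians describe the classes and carry no test.

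**Figure D1:**
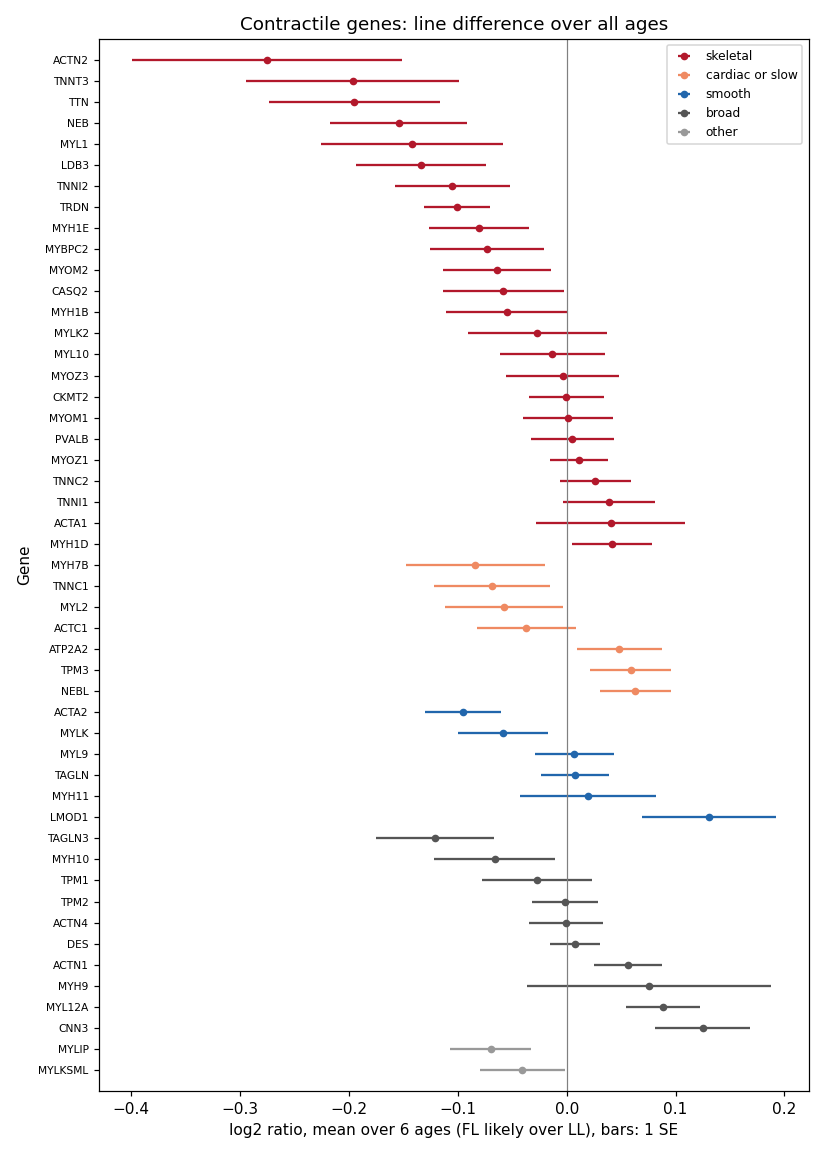
Fitted log2 ratio of each of the 49 genes as the mean over 6 ages (x axis, FL likely over LL), with bars of 1 standard error (SE), grouped by class from skeletal at the top to other at the bottom. The skeletal genes run from ACTN2 at -0.28 to MYH1D at 0.041, and the smooth genes from ACTA2 at -0.095 to LMOD1 at 0.13.

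Among the sarcomere's structural proteins, 4 had an unadjusted p under 0.05 in the mean over ages. ACTN2, the alpha-actinin that crosslinks actin at the Z-disc, ranged over the 24 arrays from -2.53 to 0.77 with a median of -0.087, after removal of its fitted dye effect. Its fitted difference was -0.28 (SE 0.124, limma adjusted p 0.441), and it lay above 0 on 11 of 24 arrays. The spread of ACTN2 over arrays, an SD of 0.709, exceeded that of 99.6% of named genes. TTN, which encodes titin, the spring that spans from Z-disc to M-band, ranged from -2.03 to 0.31 with a median of -0.11. Its fitted difference was -0.20 (SE 0.0785, limma adjusted p 0.367), with 9 of 24 arrays above 0. Both genes thus had medians close to 0 and a long tail of low arrays, seen in the heat map of the skeletal and smooth genes.

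NEB, the nebulin ruler of the thin filament, ranged from -0.81 to 0.46 with a median of -0.096 and stood at -0.15 (SE 0.063, 7 of 24 arrays above 0). LDB3, a Z-disc protein that binds alpha-actinin, ranged from -0.99 to 0.35 with a median of -0.083 and stood at -0.13 (SE 0.0598, 10 of 24 arrays above 0). The thick-filament and M-band proteins MYBPC2 at -0.073 (SE 0.052), MYOM2 at -0.064 (SE 0.0497) and MYOM1 at 0.0014 (SE 0.0413) lay within 2 SE of 0 in this reading. So did the calcineurin-binding Z-disc proteins MYOZ1 at 0.011 and MYOZ3 at -0.0037.

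Fast fibres are marked by their own troponins and myosin. TNNT3, the fast troponin T that anchors troponin to tropomyosin, ranged from -2.26 to 0.76 with a median of -0.12. It was above 0 on 5 of 24 arrays and its fitted difference was -0.20 (SE 0.098, limma adjusted p 0.512). The inhibitory subunit TNNI2 stood at -0.10 (SE 0.0525), but the calcium-binding subunit TNNC2 stood at 0.026 (SE 0.0327), so the 3 fast troponins did not share a sign. TNNI1, the slow-fibre inhibitory subunit, stood at 0.039 (SE 0.0425). The myosin heavy chains MYH1E, MYH1B and MYH1D stood at -0.081 (SE 0.0461), -0.055 (SE 0.0563) and 0.041 (SE 0.0368). The fast essential light chain MYL1 stood at -0.14 (SE 0.0834), and skeletal actin ACTA1 stood at 0.041 (SE 0.0684).

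In the mean over ages, the smallest unadjusted p among the 49 genes belonged to a protein of calcium release rather than of the filaments. TRDN encodes triadin, which ties calsequestrin to the release channel of the sarcoplasmic reticulum. It ranged only from -0.35 to 0.15 with a median of -0.079, and lay above 0 on 6 of 24 arrays. Its fitted difference was -0.10 (SE 0.0304, unadjusted p 0.00317, limma adjusted p 0.189). With ratios turned by the dyes TRDN stood at -0.057 (unadjusted p 0.0556, limma adjusted p 0.116). Calsequestrin itself, CASQ2, stood at -0.058 (SE 0.0552), the calcium buffer PVALB at 0.005 (SE 0.0381), and CKMT2, the creatine kinase of muscle mitochondria, at -0.00031 (SE 0.0343).

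Smooth muscle genes lay on both sides of 0. ACTA2, smooth muscle alpha-actin, ranged from -0.51 to 0.14 with a median of -0.096, and was above 0 on 8 of 24 arrays. Its fitted difference was -0.095 (SE 0.0347, limma adjusted p 0.299). LMOD1, leiomodin of smooth muscle, which nucleates actin filaments, went the other way: it ranged from -0.53 to 0.95 with a median of 0.14, and its fitted difference was 0.13 (SE 0.0616, limma adjusted p 0.473). MYLK, the light chain kinase, stood at -0.059 (SE 0.0417) with arrays from -0.83 to 0.27. MYH11, the smooth muscle myosin heavy chain, stood at 0.019 (SE 0.0624) with arrays from -1.03 to 0.57. MYL9, the regulatory light chain that the kinase acts on, stood at 0.0071 (SE 0.0361), and transgelin, TAGLN, at 0.0079 (SE 0.0313).

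**Figure D2:**
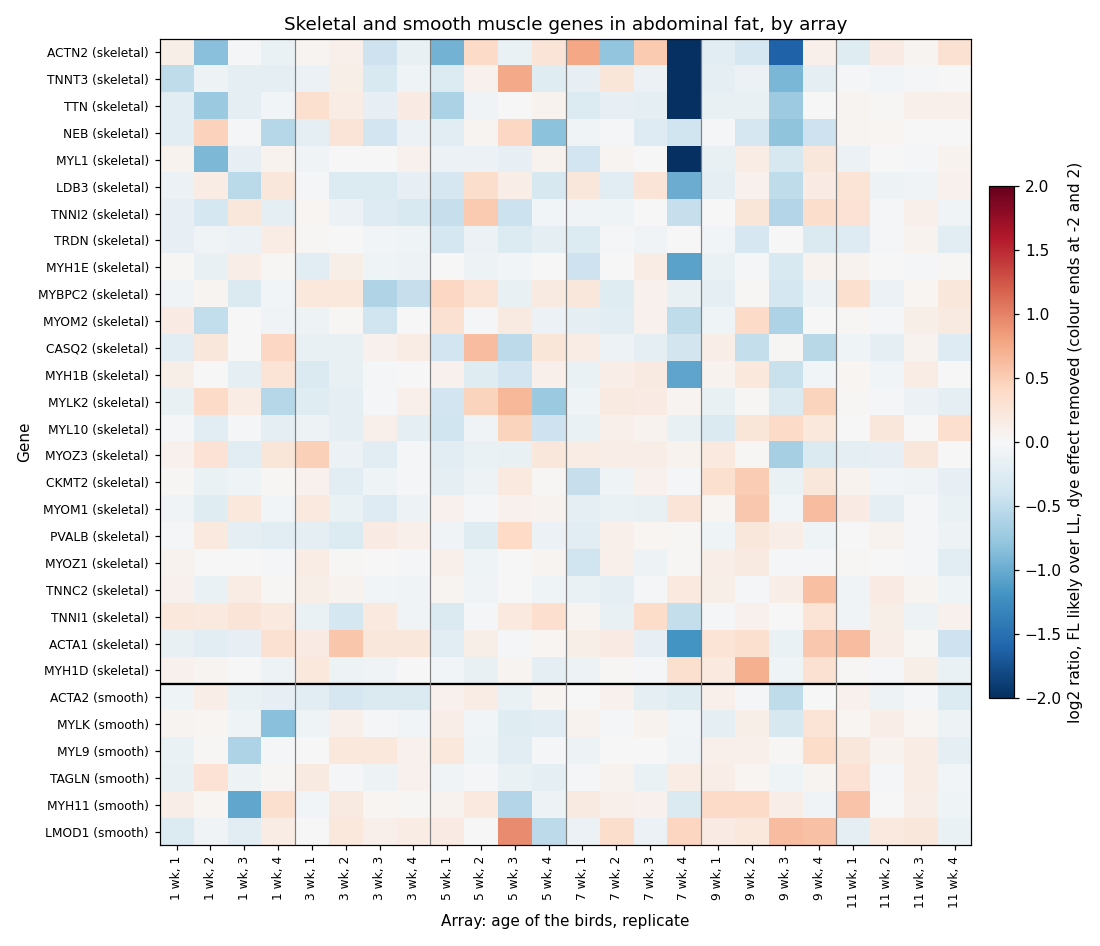
Log2 ratios (FL likely over LL, dye effect removed) of 24 skeletal genes above the black line and 6 smooth muscle genes below it (y axis) on each of the 24 arrays (x axis, by age and replicate). Blue is below 0 and red above 0, and colours end at -2 and 2. ACTN2, TNNT3, TTN and MYL1 on 7 wk replicate 4 lie between -2.53 and -2.03, and the smooth genes of that array lie between -0.29 and 0.43.

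The lowest skeletal ratios lay in a few pairs of birds. On 7 wk replicate 4, 9 of 24 skeletal genes had a ratio below -0.5, where 1.27% of all features did, and 0 of 6 smooth genes did. ACTN2 was at -2.53 on this array, TNNT3 at -2.26, MYL1 at -2.07 and TTN at -2.03. The next group, picked out after its values were seen, held ACTA1 at -1.20, MYH1E at -1.07, MYH1B at -1.05 and LDB3 at -0.99. MYOM2, at -0.50, was the last of the 9, and TNNI1 and TNNI2 lay just outside at -0.48 and -0.46. Without dye correction the deposited ratios of ACTN2, TNNT3, TTN and MYL1 were -2.95, -2.26, -2.22 and -2.05. FL carried the 647 dye on this array, so both readings of the ratios give it the same sign.

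Some other muscle genes did not share the low values of this pair of birds. On 7 wk replicate 4, MYH1D was at 0.32 and TNNC2 at 0.20, while PVALB, MYOZ1, TRDN and CKMT2 lay between -0.030 and 0.023. Among heart and slow forms, MYH7B was at -1.26 while MYL2, the regulatory light chain of ventricle and slow fibres, was at 0.058 and ATP2A2, their calcium pump, at -0.036. Of the broadly made forms, TPM1 was at -0.75 and desmin, DES, at -0.16. Of the 24 skeletal genes, 16 lay below 0 on this array and 8 above.

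Genes with several spots show how far single clones carry the 7 wk value. The 2 MYL1 spots stood close together, at -2.09 and -2.05, and the 2 TNNT3 spots were both low, at -3.38 and -1.14. The 2 MYH1B spots were at -1.37 and -0.74. LDB3 was at -1.78 on one spot and -0.22 on the other, and ACTA1 at -2.39 and 0.0067. The MYH1D spots were both above 0, at 0.45 and 0.20. Fast myosin heavy chain genes are close relatives: MYH1B and MYH1E are neighbours with 0 protein-coding genes between them in the RefSeq annotation of the broiler assembly GRCg7b, and 2 lie between MYH1B and MYH1D. Spotted cDNA of such relatives, and of the actins, can bind transcripts of several members, so their values are not certain to be their own. ACTN2, TTN, NEB and TRDN each rest on 1 spot.

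A second pair of birds had a weaker form of the pattern. On 9 wk replicate 3, 8 of 24 skeletal genes and 1 of 6 smooth genes were below -0.5, where 4.59% of all features were. ACTN2 was at -1.61, TNNT3 at -0.92, NEB at -0.81, TTN at -0.72 and MYL1 at -0.32 on this array. The smooth gene was ACTA2 at -0.51, while LMOD1 was at 0.62. On 5 wk replicate 1, 2 skeletal genes were below -0.5, ACTN2 at -0.95 and TTN at -0.63, where 4.84% of all features were. The array 1 wk replicate 2 held 3 such skeletal genes, MYL1 at -0.90, ACTN2 at -0.84 and TTN at -0.75, where 2.28% of all features were as low. NEB and MYLK2 were the 2 such genes on 5 wk replicate 4, at -0.81 and -0.75, and on 1 wk replicate 4, both at -0.57. There 2.69% and 5.30% of named genes were as low. In the other direction, 9 wk replicates 2 and 4 each had 3 of 24 skeletal genes above 0.5, where 1.59% and 5.06% of named genes were. Without dye correction ACTN2 and TTN were at -1.19 and -0.53 on 9 wk replicate 3. On 5 wk replicate 1 they were at -0.53 and -0.44, so TTN was below -0.5 there only after the correction. On 1 wk replicate 2 they were lower without it, at -1.26 and -0.94. LL carried the 647 dye on 9 wk replicate 3 and 5 wk replicate 1, so in the turned reading these 2 arrays change sign and the 7 wk and 1 wk arrays do not.

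Markers of other cell types moved on some of these arrays. For 15 hepatocyte genes of 18 listed, the array 7 wk replicate 4 had a median ratio of 0.0386, and 9 wk replicate 3 had -0.0732. The arrays 5 wk replicate 1 and 1 wk replicate 2 had 0.684 and 1.28. Over all 24 arrays it ran from -0.602 to 1.28. Connective tissue genes, 15 of 16 listed, had medians of 0.0924, 0.0028, -0.303 and 0.00846 on the same 4 arrays, within a range of -0.606 to 0.485. Adipocyte genes, 14 of 17 listed, had medians of -0.0679, 0.166, -0.0394 and 0.192. Endothelial genes, 12 of 15 listed, had medians of 0.140, 0.0146, -0.0170 and 0.0730. The value on 7 wk replicate 4, where 1 of the 12 lay below 0, was the highest of the 24 arrays, over which this median ran from -0.0839 to 0.140. The part of these other cell types in the muscle values was not tested.

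**Figure D3:**
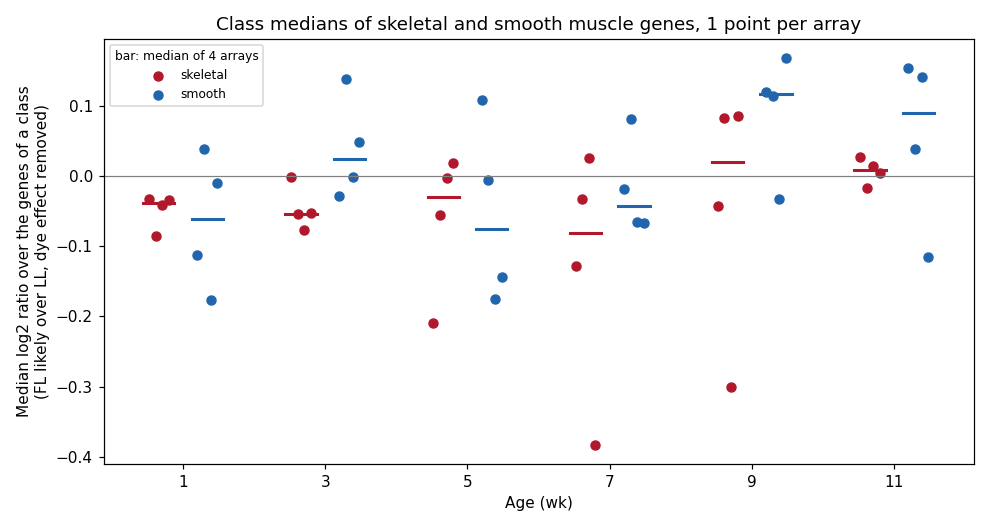
Median log2 ratio over 24 skeletal (left of each pair) and 6 smooth muscle genes (right) on each array (y axis, FL likely over LL, dye effect removed) by age in wk (x axis), 1 point per array, with bars at the median of 4 arrays. The lowest skeletal medians are -0.38 at 7 wk and -0.30 at 9 wk, below the lowest smooth median of -0.18.

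Class medians per array gave the comparison of skeletal with smooth muscle. The skeletal median lay below 0 on 17 of 24 arrays and ranged from -0.38 to 0.086. The smooth median lay below 0 on 13 of 24 arrays and ranged from -0.18 to 0.17. Skeletal minus smooth was below 0 on 17 of 24 arrays, between -0.32 and 0.17, with a median of -0.078. For the fitted values over ages, the skeletal class median minus the smooth one was -0.064. It turned its sign in other readings: it was 0.034 with ratios turned by the dyes and 0.024 with spot names as given. By age, all 4 arrays were below 0 for the skeletal median at 1 wk and at 3 wk, and the difference between classes was below 0 on all 4 arrays at 9 wk. At 11 wk the skeletal median lay between -0.017 and 0.027, the narrowest range of the 6 ages.

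Leaving out arrays was tried after the values were seen. Without 7 wk replicate 4 and 9 wk replicate 3, the 2 arrays with the lowest skeletal medians, the median of the 24 fitted differences was -0.0117, against -0.056 with all arrays. Without 5 wk replicate 1 as well it was -0.0093, and ACTN2 stood at 0.017. Across arrays, the mean correlation between pairs of skeletal genes was 0.131, and it was 0.0514 without the 2 arrays. For smooth genes it was 0.174 and 0.204, and for all named genes 0.0132 and 0.0138. These correlations describe genes that share arrays and carry no test.

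At 7 wk, the age of the largest ratios, 5 genes had an unadjusted p under 0.05, all with fitted differences below 0, where 4.2% of all features had one. None of the 49 passed the adjusted threshold, where 0.00665% of all features did. After removal of its fitted dye effect TTN had ratios of -0.27, -0.17, -0.19 and -2.03 on the 4 arrays, all below 0. As deposited, its replicate 3 was at 0.0042. The fitted difference of TTN was -0.64 (SE 0.212, limma adjusted p 0.76). MYL1 had -0.39, 0.048, 0.014 and -2.07, and stood at -0.53 (SE 0.225, limma adjusted p 1). ACTN2 had 0.77, -0.78, 0.52 and -2.53, on both sides of 0, and at -0.77 (SE 0.335) it was the lowest of all 6428 named genes at this age. With ratios turned by the dyes, which changes the sign of replicates 1 and 3, it stood at -1.84 (SE 0.242, limma adjusted p 7.48e-05) and 0 named genes lay lower. The others were MYH1E at -0.29 and MYH10, a nonmuscle myosin heavy chain, at -0.32. With ratios turned by the dyes MYH10 stood at -0.050. In the first reading the count with an unadjusted p under 0.05 was 0 without replicate 4, 2 without replicate 2 and 10 without replicate 3. With each of the 24 arrays left out in turn, TTN stood between -0.71 and -0.18 and MYL1 between -0.56 and -0.053.

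At 3 wk TPM2, a tropomyosin of the thin filament found in both striated and smooth muscle, was higher in FL in the first reading. It was the only one of the 49 genes called at any age in that reading. Its ratios on the 4 arrays were 0.077, 0.46, 0.20 and 0.26, all above 0. Its fitted difference was 0.26 (SE 0.0641, limma adjusted p 0.0479), at an age where 1.22% of all features were called. The call was close to the threshold: it was lost when any of 14 of the 24 arrays was left out, among them 3 wk replicates 2, 3 and 4, all 4 arrays of 7 wk and of 9 wk, and 11 wk replicates 1, 2 and 3, with adjusted p of 0.052 to 0.261. It also rests on spots that differ. The 6 TPM2 spots, each from its own clone, stood at 0.042, 0.44, 0.55, 0.044, 0.21 and 0.28 at this age, and none passed by itself. With ratios turned by the dyes TPM2 was not called at 3 wk. TAGLN3 was called instead, at -0.40 (limma adjusted p 0.0392), where 688 of 15027 features were.

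In the same birds 4 more genes had an unadjusted p under 0.05, making 5 of 49 where 11.9% of all features had one. ACTA2 had ratios of -0.21, -0.34, -0.29 and -0.29, and stood at -0.29 (SE 0.0738, limma adjusted p 0.0587). Its adjusted p was 0.0463 without 1 wk replicate 2, 0.0431 without 9 wk replicate 1 and 0.0265 without 9 wk replicate 3. It was 0.305 without 3 wk replicate 4, the highest with any single array left out, and 0.536 in the turned reading, where the gene stood at -0.12. Of its 2 spots, one stood at -0.53 (SE 0.0898, limma adjusted p 0.0162 with spots fitted singly) and the other at -0.047 (SE 0.1). Of the 80 contractile spots 1 was called at 3 wk in that fit, where 220 of 19077 spots were. CNN3, the calponin made in many nonmuscle cells, had 0.19, 0.44, 0.22 and 0.44, and stood at 0.35 (SE 0.0929, limma adjusted p 0.0716), with its 3 spots at 0.45, 0.38 and 0.21. All 4 arrays of each of these 2 genes shared a sign, as the plot by age shows. MYBPC2 at -0.28 and MYLIP at -0.18 were the others. With ratios turned by the dyes CNN3 stood at 0.19 (limma adjusted p 0.444).

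Connective tissue and fibroblast genes lay above 0 at the same age, but not at this age alone. Of the 15 measured, 7 had an unadjusted p under 0.05 at 3 wk with a fitted difference above 0, and 0 with a difference below. Of 15027 features 810 had this above 0 and 981 below. None of the 15 was called. In the mean over ages 6 had an unadjusted p under 0.05 above 0, and 0 below. Their medians on the 4 arrays of 3 wk were 0.398, 0.485, 0.257 and 0.127. Medians were also above 0 on all 4 arrays at 7, 9 and 11 wk, from 0.0028 to 0.453. At 1 wk they ran from -0.055 to 0.386 and at 5 wk from -0.606 to 0.157. The part of these cells in the 3 wk values of TPM2, CNN3 and ACTA2 was not tested.

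**Figure D4:**
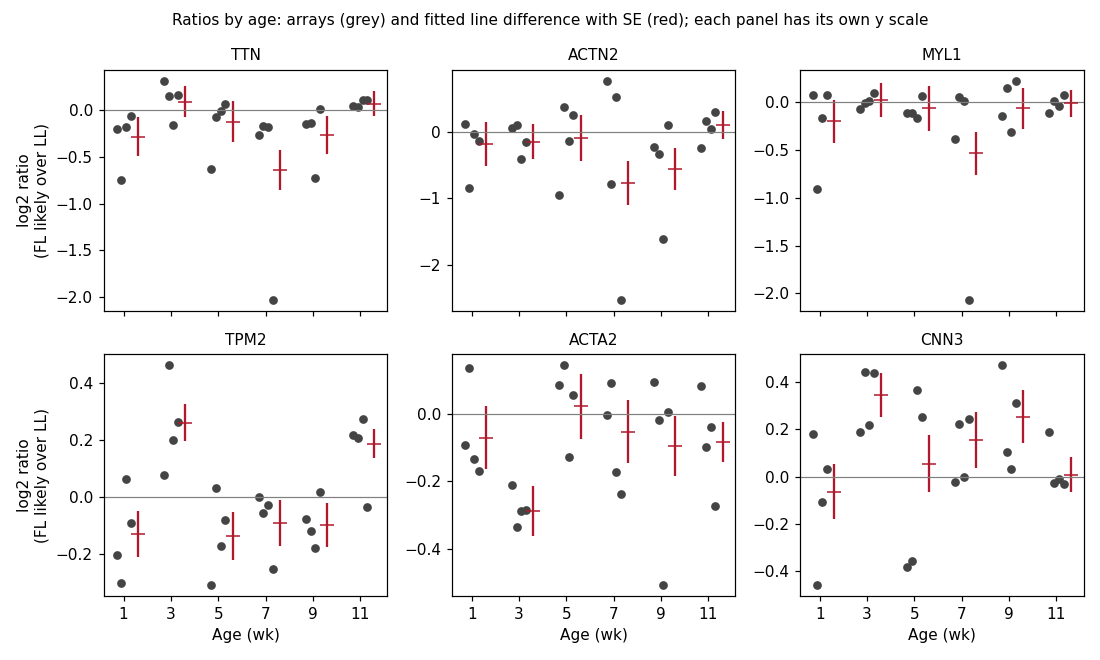
Log2 ratios (y axis, FL likely over LL, dye effect removed, a scale of its own in each panel) of TTN, ACTN2, MYL1, TPM2, ACTA2 and CNN3 by age in wk (x axis). Grey points are arrays, and red marks are the fitted difference between the lines with 1 SE. TPM2 stands at 0.26 at 3 wk and 0.19 at 11 wk and below 0 at the other ages, and the lowest TTN, ACTN2 and MYL1 points are on 7 wk replicate 4.

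At the remaining ages 0 of the 49 genes were called in the first reading, where 0% of all features were called at 1, 5 and 9 wk and 0.0266% at 11 wk. At 1 wk 2 genes had an unadjusted p under 0.05, where 2.2% of all features had one. These were ATP2A2 at 0.24 (SE 0.104), with arrays at 0.56, -0.089, 0.22 and 0.10, and MYL9 at -0.21 (SE 0.0964), with arrays at -0.13, 0.021, -0.62 and -0.039. All 6 smooth muscle genes had fitted differences below 0 at this age, from -0.21 to -0.0087. With ratios turned by the dyes only MYLK lay below 0 at 1 wk, at -0.20. The others then ran from ACTA2 at 0.010 to MYH11 at 0.27. At 5 wk the single gene was TRDN, at -0.23 (SE 0.0842), with ratios of -0.35, -0.11, -0.28 and -0.18, all below 0, where 2.16% of all features passed. With ratios turned by the dyes NEBL was called at 1 wk, at 0.28 (limma adjusted p 0.0382). LMOD1 at -0.59 (limma adjusted p 0.00836) and MYH9 at -0.80 (limma adjusted p 0.0314) were then called at 5 wk. The share of all features called at 1 and 5 wk in that reading is not given here.

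At 9 wk 5 genes had an unadjusted p under 0.05, where 6.65% of all features had one. MYH1D stood at 0.26 (SE 0.0939), with arrays at 0.19, 0.72, -0.089 and 0.31. CKMT2 stood at 0.24 (SE 0.0875), with arrays at 0.32, 0.51, -0.13 and 0.23. The low array of both was replicate 3. LMOD1 at 0.35 and CNN3 at 0.25 also lay above 0, and NEB at -0.35 below it. Skeletal genes thus stood on both sides of 0 at 9 wk, with 9 of 24 above it. With ratios turned by the dyes CASQ2 was called at -0.45 (limma adjusted p 0.00873) and MYH9 at -0.80 (limma adjusted p 0.0316). MYOM1 was then called at 0.37 (limma adjusted p 0.0327). LMOD1 and CNN3 changed sign in that reading, to -0.11 and -0.10. The share of all features called at 9 wk in that reading is not given here.

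At 11 wk 3 genes had an unadjusted p under 0.05, where 6.34% of all features had one. TPM2 had ratios of 0.22, 0.21, 0.27 and -0.036, and stood at 0.19 (SE 0.0511, limma adjusted p 0.384). MYL2 had -0.21, -0.33, -0.23 and 0.038, and stood at -0.22 (SE 0.0923). The third was ACTN1, the alpha-actinin of nonmuscle and smooth muscle cells, at 0.11 (SE 0.0522). With ratios turned by the dyes ACTN1 stood at -0.14. Skeletal genes lay closest to 0 at this age: their fitted differences ran from -0.11 to 0.15. With ratios turned by the dyes TAGLN3 at -0.39, MYH9 at -0.69, CASQ2 at -0.29, TNNI2 at -0.31 and MYL12A at -0.20 were called lower. TNNI1 at 0.26 and NEBL at 0.19 were then called higher. Limma adjusted p of these genes ran from 0.0041 to 0.0342. The share of all features called at 11 wk in that reading is not given here.

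Whether the line difference changed with age was tested directly. In limma's F test over the 6 ages, 1 of 49 genes had an unadjusted p under 0.05, where 2.14% of all features had one. It was TPM2 (unadjusted p 0.000982, limma adjusted p 1). At 5 wk TPM2 stood below 0, with ratios of -0.31, 0.031, -0.17 and -0.079. MYL9 (unadjusted p 0.0875) and CNN3 (unadjusted p 0.112) followed. Of the linear trend over age, 0 of 49 genes had an unadjusted p under 0.05, although all 6 smooth muscle genes had a slope above 0, from 0.0061 to 0.031 per wk. With ratios turned by the dyes, all of these but MYLK stood lower at 11 wk than at 1 wk. MYH11, for example, stood at -0.20 at 11 wk against 0.27 at 1 wk. Slopes in that reading are not given here.

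Genes made in many cells held 3 of the 10 with an unadjusted p under 0.05 over all ages. CNN3 ranged from -0.46 to 0.47 with a median of 0.14, and its fitted difference was 0.13 (SE 0.0437, limma adjusted p 0.276, 15 of 24 arrays above 0). MYL12A, a regulatory light chain of nonmuscle myosin, stood at 0.088 (SE 0.0342) as the mean of 6 spots that ran from -0.062 to 0.29. TAGLN3, a transgelin known from the nervous system in mammals, stood at -0.12 (SE 0.0542). With ratios turned by the dyes MYL12A changed sign, to -0.18 (limma adjusted p 0.000239). CNN3 then stood at 0.014 and TAGLN3 at -0.22. Heart and slow forms ran from MYH7B at -0.084 (SE 0.0637) to NEBL, the nebulin relative of heart, at 0.063 (SE 0.0327), and 0 of 7 had an unadjusted p under 0.05.

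Further genes of muscle were listed by role, beyond the 49. Of 70 other striated muscle genes listed, 33 were measured. Their median was -0.0079 over the ages. CSRP3, a Z-disc protein, was the single one with an unadjusted p under 0.05, at -0.29 (SE 0.0924, limma adjusted p 0.238). Over all features 1541 of 15027 had such a p, so 1 of 33 is no excess. On 7 wk replicate 4 the median of the 33 was -0.082, and 2 were below -0.5: the small heat shock protein CRYAB at -1.17 and the titin-binding repeat protein ANKRD1 at -0.68. Of 40 other smooth muscle genes listed, 23 were measured, with a median of 0.0096 and 16 above 0. DSTN, the actin-severing destrin, was the single one with an unadjusted p under 0.05, at 0.15 (SE 0.0472, limma adjusted p 0.212), again no excess over all features. On 7 wk replicate 4 the median of the 23 was 0.056, and 0 were below -0.5. Of all features 1.27% were below -0.5 on that array.

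The reading of the dyes moved the count of called genes in the mean over ages, and of the other settings run none did. The fitted dye effect was called for 19 of 49 genes, where 33.6% of all features were, 8 above 0 and 11 below. It ran from -0.96 for MYH9, a nonmuscle myosin heavy chain, to 0.33 for TNNI1, and was -0.84 for ACTN2. With ratios turned by the dyes, 21 of 49 genes were called in the mean over ages, where 37.9% of all features were. Of the 24 skeletal genes 6 were then higher and 7 lower, with a class median of -0.0012. Of the 6 smooth genes 0 were called in this mean, with a median of -0.036, though LMOD1 was called at 5 wk. Outside these classes MYL12A at -0.18, TAGLN3 at -0.22, TNNC1 at -0.18, MYLIP at -0.12 and ACTN1 at -0.081 were called lower, besides MYH9. NEBL at 0.15 and DES at 0.060 were called higher. The part of a ratio that alternates with the dyes is the dye effect in the first reading and the line difference in the turned one. MYH9, for example, had a turned mean of -0.44. The dye calls and the turned calls are thus the same component read in 2 ways, not separate findings.

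The called skeletal genes stood at both ends. The 6 higher ones were MYOM1 at 0.16 (limma adjusted p 0.00204), MYH1D at 0.14, TNNC2 at 0.13, TNNI1 at 0.13, CKMT2 at 0.12 and MYOZ1 at 0.11. Of the 7 lower ones, TNNI2 stood at -0.22 (limma adjusted p 0.000545), MYBPC2 at -0.21 and CASQ2 at -0.15, and the other 4 were structural proteins with an unadjusted p under 0.05 in the first reading too. They were ACTN2 at -0.56 (SE 0.102, limma adjusted p 0.000288), TTN at -0.28 (SE 0.102, limma adjusted p 0.0375), NEB at -0.17 (SE 0.0599, limma adjusted p 0.0267) and LDB3 at -0.16 (SE 0.0488, limma adjusted p 0.012). The readings are not separate tests of these 4 genes. Arrays that carried FL in the 647 dye entered both with the same sign, 7 wk replicate 4 among them. Deposited ratios there were -2.95 for ACTN2, -2.22 for TTN, -0.54 for NEB and -1.12 for LDB3. At 7 wk TTN stood at -0.97 (limma adjusted p 0.0092) and MYL1 at -0.75 (limma adjusted p 0.0345) in the turned reading. ACTN2, LDB3, TNNI2, CASQ2, MYBPC2, TNNT3 and MYH7B were also called lower at 7 wk, with limma adjusted p of 7.48e-05 to 0.0447. MYOZ1, MYOM1 and MYH1D were called higher at 7 wk, with limma adjusted p of 0.014 to 0.031. The share of all features called at 7 wk in that reading is not given here, so the number of calls has no background. In the mean over ages TNNT3 stood at -0.11 (limma adjusted p 0.469) and was not called there. TPM2 at 3 wk stood at 0.068 (limma adjusted p 0.812), and LMOD1 in the mean over ages at -0.091 (limma adjusted p 0.144).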

How the data were processed

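The authors deposited 1 log2 ratio per spot and array, and the submitters' processing notes name limma 3.4.5 with R 2.11.1. How the ratios were background-corrected, normalized, filtered and signed is not given in the sources used here. Array medians lay between -0.056 and 0.019. After removal of 123 control spots, the spots of each gene were averaged to give 15027 features for limma 3.58.1 with statmod 1.5.0 in R 4.3.3. The fit had 6 age effects, a dye term coded 0.5 and -0.5, array weights and empirical Bayes, with Benjamini-Hochberg adjustment over all features and a threshold of 0.05. It was tested on simulated data. All 49 genes had values on all 24 arrays, and 48 were found in the RefSeq table. The number of arrays limits the precision. No intensities were used, so levels and background were not checked. The 4 birds per line and age were biological replicates, per the study's design text. Genes and lists were chosen with earlier results of these data known. Array values were given for the 6 skeletal and 4 smooth genes with the smallest p over the ages, the 3 in the F test and the 2 at each age. Alternatives are listed with their effects under the results on processing.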

Additional observations from a re-analysis of the deposited data

Results flagged for a closer look

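Among the 18 genes given by array and the skeletal and smooth class medians, 120 groups of 4 arrays were examined for a sample far from the others, and 6 held one by Dixon's criterion, about the share of 1 in 20 that chance gives. Of these 6, 5 were low. On 7 wk replicate 4 TTN was at -2.03 and TNNT3 at -2.26. On 9 wk replicate 3 TNNT3 was at -0.92. On 1 wk replicate 4 MYLK was at -0.83, and on 5 wk replicate 2 ATP2A2 was at -0.67. On 11 wk replicate 1 CNN3 was at 0.19.

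After removal of the fitted dye effect, some genes had every array of one age on the opposite side of 0 from every array of another. These were 2 of the 18 genes given by array, and 3 of all 49, and the differences were not tested singly. The share of all features that did so was not computed, so these counts show nothing particular to the contractile genes. In the deposited ratios each of the 3 genes had arrays of both signs at every age named below. TTN as deposited stood at 0.24, -0.16, 0.30 and -0.081 at 11 wk. The signs that follow are those after the removal. TTN was above 0 on all 4 arrays at 11 wk and below 0 on all 4 at 1 wk and at 7 wk, with fitted differences between the ages of 0.35 and 0.71. MYL9 was above 0 on all 4 arrays at 3 wk and at 9 wk and below 0 on all 4 at 7 wk, with differences of 0.17 and 0.16. The third gene was DES, above 0 on all 4 arrays at 11 wk and below 0 on all 4 at 5 wk, with a difference of 0.13.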

How the results depend on the processing

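With ratios turned by the dyes, 21 genes were called in the mean over ages, 21 had an unadjusted p under 0.05 there, 18 at 7 wk, and 4 were called in the F test. The share of all features at 7 wk and in the F test of that reading is not given here. Unadjusted p under 0.05 in the mean was reached by 4 genes with no array weights, 6 with arrays scaled, 4 without 3 wk, 6 without 7 wk, 4 without 9 wk and 6 without the 3 arrays with the lowest skeletal medians, against 10. At 7 wk it was reached by 3 with each spot alone, 3 with the replicate block, 3 without 11 wk, and 0 without the 2 or the 3 lowest arrays, against 5. Genes called at 3 wk numbered 0 with no dye term, no array weights, array medians taken off, arrays scaled, names as given, or without 7 wk or 11 wk, and 2 with the replicate block or without 1 wk or 5 wk, against 1. With ratios turned by the dyes the count was also 1, but the gene was TAGLN3 and not TPM2. Leaving out each array in turn, 0 to 3 were called at 3 wk, 5 to 13 had an unadjusted p under 0.05 in the mean (6 without 3 wk replicate 3, 5 without 5 wk replicate 1, 6 without 7 wk replicate 2) and 0 to 10 at 7 wk. Features called at 3 wk numbered 0 without 3 wk replicate 4, and 0 to 688 over the other settings.

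Some values given above but not followed through the settings also changed sign with ratios turned by the dyes. Among them were LMOD1 at 9 wk at -0.11, CNN3 at 9 wk at -0.10, ACTN1 at 11 wk at -0.14 and MYL12A in the mean at -0.18. Of the values followed through the settings, signs turned for these. With ratios turned by the dyes: TRDN at 5 wk 0.0061, LMOD1 -0.091, MYH11 -0.024, TPM2 at 5 wk 0.0034 and at 11 wk -0.16, MYL9 at 1 wk 0.24, ATP2A2 at 1 wk -0.15 and MYL2 at 11 wk 0.052, the smooth median became -0.036 and skeletal minus smooth 0.034. With names as given, which puts other clones under each name: TRDN 0.056, TNNT3 0.028, ACTA2 at 3 wk 0.013, LMOD1 -0.068, MYH11 -0.12, TPM2 at 3 wk -0.072 and at 5 wk 0.029, MYL1 at 7 wk 0.083, MYL2 at 11 wk 0.029, the skeletal median at 7 wk 0.010, the smooth median -0.025 and skeletal minus smooth 0.024. ACTN2 was 0.017 without the 3 lowest arrays. MYH11 was -0.027 without 9 wk, -0.00011 without 11 wk, -0.024 without 1 wk replicate 4 and -0.0074 without 5 wk replicate 4. Of 890 values of single genes under other settings, 831 kept their direction and side of the threshold. This total pools settings that differ. With ratios turned by the dyes 7 values kept both, 8 were reversed, 6 became stronger and 1 weaker. With names as given 13 kept both and 9 were reversed. The cause was not tested.

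Replicate numbers are shared across ages. Arrays of the same number correlated at a mean r of -0.06 over 60 pairs. Of 24 arrays, 0 correlated best with their own number. Arrays of the same number also share a dye orientation, and taking off the fitted dye effect by itself pushes their correlation below 0. The check therefore cannot tell whether the numbers pair the birds. With the replicate block, 0 features were called in the mean over ages and the skeletal median was -0.055. No filter on dim spots could be made, since the ratios hold no signal over background.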
